A study of Homo sapiens with 12 samples.

Results

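A set of 10 genes was lower, together with PRMT5, in LNCaP cells after a PRMT5 hairpin was switched on: SLITRK5, CNGB3, NIPAL3, ARL6IP1, PTER, GDPD1, ABHD2, FAM3C, B3GLCT and TNFAIP1. They were picked by name from 63299 genes listed in the deposited counts, because they were lower in doxycycline-treated libraries both without and with irradiation. All 10 of 10 passed the filter on low counts, which 17191 genes passed. They belong to 48 genes, PRMT5 included, that a model over all tested genes called lower in both irradiation states (0.279% of those tested). The rule sets no limit of size, and the member with the smallest difference without irradiation, NIPAL3, ranked 1057th of the 17191 from the most lowered. Because the knockdown differences chose the members, they are given as a description, with no test.

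LNCaP is a prostate cancer line derived from a lymph node metastasis, and the line used here, LNCaP-shPRMT5, carries a short hairpin RNA against PRMT5 that doxycycline (Dox) induces. All 12 libraries come from this 1 line, and whether it is a single clone is not given in the sources used here. The non-irradiated controls (Dox-, 0 Gy) and the irradiated controls (Dox-, 2 Gy) received no doxycycline. The non-irradiated knockdowns (Dox+, 0 Gy) and the irradiated knockdowns (Dox+, 2 Gy) received it at 1 µg/mL, renewed at intervals of 48 h, and irradiated cells were collected 24 h after the dose. Each of the 4 groups had 3 libraries of polyadenylated RNA, numbered 1 to 3. Doxycycline and the hairpin always came together and cannot be told apart. The irradiated libraries were deposited in a count table of their own, so irradiation and any other difference between the 2 tables cannot be told apart either. The labels do not say whether replicates were grown separately, so the p-values speak only of the spread among these libraries, which could be technical.

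PRMT5 is the main enzyme that places symmetric dimethyl groups on arginines, and it works with WDR77 in a complex called the methylosome, on histones and on the Sm proteins of the spliceosome. A short hairpin RNA is cut by Dicer into a small duplex, and 1 strand of it is loaded into an Argonaute protein, which cuts messenger RNAs that match that strand along its length. Messenger RNAs that match only a short stretch of it, most often in the 3′ untranslated region (UTR), can be repressed too, as they are by microRNAs. The 10 genes belong to no common pathway. Of these, 4 encode membrane proteins (SLITRK5, CNGB3, NIPAL3, ARL6IP1), 3 encode hydrolases (PTER, GDPD1, ABHD2), FAM3C and B3GLCT act in the secretory pathway, and TNFAIP1 is an adaptor of a ubiquitin ligase.

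The hairpin's sequence is not given in the sources used here. Earlier work on these data had found the 7-base word TTCCCTA among genes lowered in both states, so its presence in members is no independent support, and the word is used here only to place the members' 3′ UTRs beside PRMT5. PRMT5 messenger RNA holds the word once, in the coding sequence, at base 1974 of 2531. The 30 bases around it are shown with a stretch of the same length from the 3′ UTR of each member that holds TTCCCTA or 1 of the 3 words that follow it base by base in PRMT5, which are TCCCTAT, then CCCTATT and last CCTATTA. The 3 words were added after their counts were seen. Each member's line is the place with its longest run through these words, and its capitals mark the bases identical to PRMT5 in an unbroken run. The capitals in the PRMT5 line mark the 10 bases that the 4 words cover. All sequences are from GENCODE 29 transcripts (GRCh38), on the strand of the messenger RNA, 5′ to 3′.
PRMT5: tttcccatcctcTTCCCTATTAagcagccc
ABHD2: agtacatctagtTTCCCTATTAAaaatgtg
ARL6IP1: tgtggtatatctgTCCCTATTAAataagtg
NIPAL3: tacactcaccaCTTCCCTAgacagccttta
PTER: tcagcctaattgagCCCTATTAttttaact
FAM3C: gtctccgcacatTTCCCTAaaagtacaatg
GDPD1: tttcatgatcatTTCCCTAagccatttcca
TNFAIP1: ttgaaagtttccagCCCTATTcagaaagca
SLITRK5: tgagtcatccgttgtCCTATTAttggtttt

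The PRMT5 bases lie on the minus strand of chromosome 14, where the word itself is at chr14:22922181-22922187 and an intron splits the 30 bases. The member stretches are at chr15:89195710-89195739 (plus) for ABHD2 and chr16:18791923-18791952 (minus) for ARL6IP1. Those of NIPAL3, PTER and FAM3C are at chr1:24470639-24470668 (plus), chr10:16511442-16511471 (plus) and chr7:121350223-121350252 (minus). Those of GDPD1, TNFAIP1 and SLITRK5 are at chr17:59273829-59273858, chr17:28346686-28346715 and chr13:87685018-87685047, all on the plus strand. The run in place with PRMT5 was 11 bases in ABHD2, 10 in ARL6IP1, 8 in NIPAL3 and PTER, and 7 in the others shown. Short runs are common. Anywhere along the 30 bases, 78.21% of all UTRs searched shared a run of at least 7. A run of 8 was shared by 47.05%, 9 by 19.23%, 10 by 6.213% and 11 by 1.674%. Counted that way, the longest run was 9 in SLITRK5 and TNFAIP1 and 8 in FAM3C, CNGB3 and B3GLCT. No sequence is printed for CNGB3, which holds TCCCTAT and CCCTATT, and B3GLCT holds none of the 4.

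TTCCCTA itself stood in the 3′ UTRs of 4 of 10 members: once each in NIPAL3, GDPD1 and FAM3C and at 3 places in ABHD2. Of the 12667 tested genes with an annotated 3′ UTR, 12.24% held it. Long UTRs hold more words, and the members' UTRs came to 42.04 kb in all, with SLITRK5 alone at 18007 bases, longer than 99.91% of the UTRs searched. Per kilobase, the word occurred 0.143 times in the members and 0.0714 times in all UTRs searched. Its reverse complement TAGGGAA was in 1 of 10 members, NIPAL3, and in 12.62% of all UTRs.

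Any of the 4 overlapping words was present in the 3′ UTR of 9 of 10 members. It was present in 55.88% of 34 other genes lowered in both states and in 23.7% of all other UTRs. TTCCCTA had been found among genes lowered in both states, so the share in the 34 is no independent support either. In the 34, TTCCCTA alone was in 47.06%, and the 3 added words, in order, in 11.76, 5.882 and 17.65%. In all other UTRs the 4 words stood at 12.12, 8.414, 7.725 and 7.788%. Occurrences per kilobase were 0.452 in the members, 0.707 without SLITRK5, 0.488 in the 34 other lowered genes and 0.203 in the rest. The median UTR was 2449 bases long in the members, 1708 in the 34 other lowered genes and 1347 in the rest. The reverse complements of the 4 words, any of them, were in 6 of 10 members, 41.18% of the 34 genes and 24.16% of the rest. The words overlap by 6 bases with their neighbours, so a longer run counts several times. A match of letters is a description and shows neither a binding site nor its use.

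**Figure D1:**
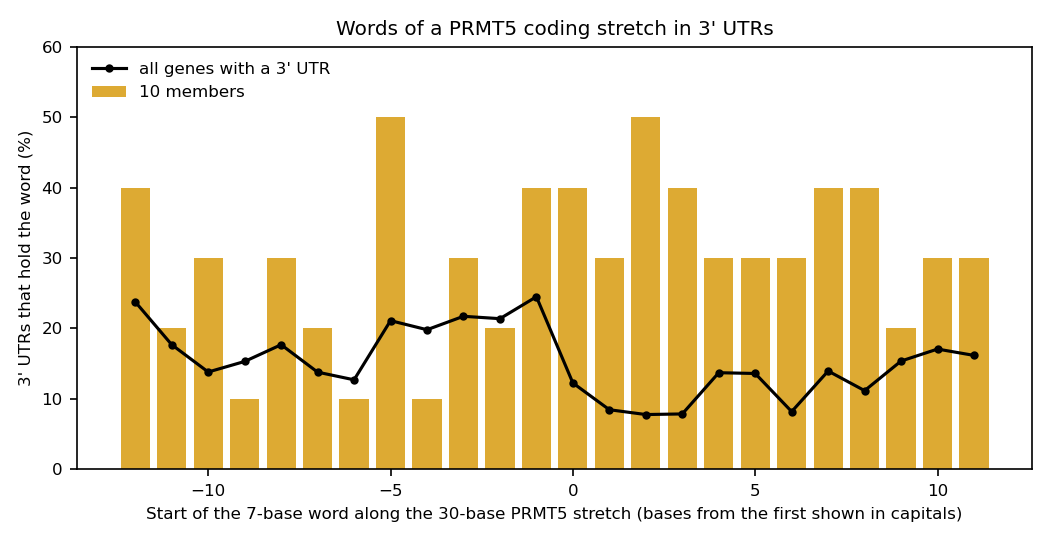
Share of 3′ UTRs (percent, vertical axis) that hold each 7-base word of the 30-base PRMT5 stretch, by the word's start along the stretch in bases from the first capital (horizontal axis); bars are the 10 members and the line is all 12667 genes with a 3′ UTR. At starts 0 to 3 the bars stand at 40, 30, 50 and 40%, where the line is at 12.24, 8.439, 7.752 and 7.839%, and other bars also reach 40 or 50%.

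Some whole-series facts bear on the members. Total counts per library ran from 14801939 to 33158865. All 10 luminal prostate markers were expressed, at a summed 8415 to 11300 CPM (counts per mega-count of the library, scaled as described below), while the 3 basal markers summed to 0.732 to 9.81, the 5 fibroblast markers to 12.2 to 27.2 with COL1A2 at 0, and the 4 leukocyte markers to at most 0.127 with 3 at 0 in all libraries. COL3A1, a fibroblast marker, moved with the knockdown, from 0.528 ± 0.325 to 1.96 ± 0.781 CPM without and 0.723 ± 0.290 to 2.56 ± 0.519 with irradiation (SD, n = 3). It did not pass in the edgeR fit without the replicate block described below (adjusted p = 0.064 and 0.154). With the block it passed (adjusted p = 0.00208 and 0.00302), and its part in the members' results was not tested. Of the other fibroblast markers, LUM had log2 fold changes of -0.715 and -0.694 and COL1A1 0.152 and 0.140. With the block, 4 of 10 luminal markers passed without irradiation (3 lower and 1 higher) and 1 with it (lower). Blocked backgrounds were 27.8% and 11.5% of tested genes called either way. In whole-culture RNA, fewer cells of a type and less RNA per cell cannot be told apart. The irradiated libraries numbered 1 stood apart: the SD over genes of a library's log2 difference from the mean of its group mates was 0.773 for the irradiated control and 0.673 for the irradiated knockdown, against 0.379 to 0.529 in the other 10 libraries. The members' median knockdown difference and the named irradiation calls are given below with and without these 2 libraries.

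PRMT5 itself, the check of the labels, had 186, 190 and 198 CPM in the non-irradiated controls and 26.6, 30.85 and 32.85 in the non-irradiated knockdowns. With irradiation it had 230, 187 and 187 CPM in controls and 31.3, 26.9 and 24.9 in knockdowns. The level kept in the Dox+ library of a same-numbered pair was 13.3 to 16.6% over the 6 pairs. Of PRMT5's exon bases 27.1% lie within PRMT5-AS1, and with the strand setting unknown the reads of the 2 genes may not be told apart. All CPM values are after TMM scaling, edgeR's correction for library composition.

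All 10 members were called lower in both knockdown comparisons, where the background of called-lower genes was 1.2% without and 0.291% with irradiation. The choice of members fixes this, and nothing is read from it. Within each irradiation state the replicate numbers pair Dox- and Dox+ libraries, and a fit with the number as a block called 14.1% and 6.05% of tested genes lower, again with all 10 members among them. The median log2 fold change of the members was -1.35 without irradiation and -1.23 with it, against 0.005 and -0.005 over all tested genes. Leaving out both irradiated number-1 libraries gave -1.36 and -1.34. Every Dox+ library was below every Dox- library of its irradiation state for every member, as 15.8% of tested genes were without irradiation and 7.72% with it.

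**Figure D2:**
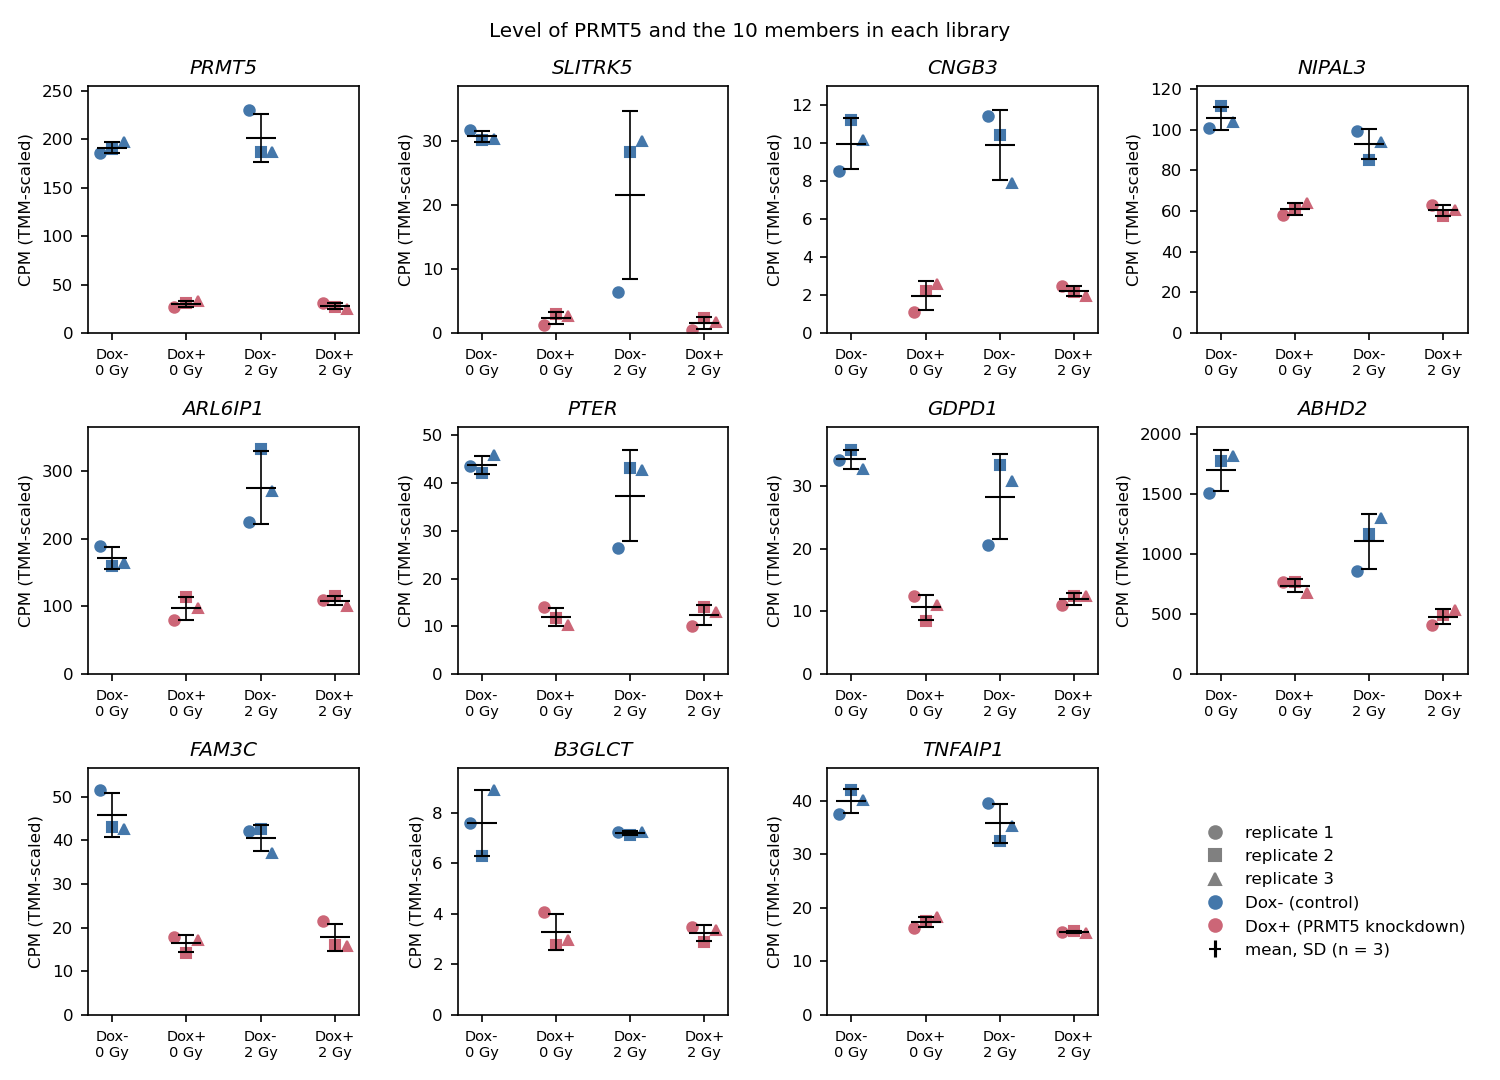
Level of PRMT5 and the 10 members in each library (CPM after TMM scaling, linear axes from 0), by group; marker shapes are replicate numbers, blue is Dox- and red is Dox+, horizontal lines are means and bars are SD (n = 3). Dox+ points lie below the Dox- points of the same irradiation state in every panel, and the irradiated control numbered 1 lies far below its group mates for SLITRK5 (6.37 against 28.3 and 29.9 CPM).

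SLITRK5, a membrane protein with leucine-rich repeats that organises synapses between neurons, lies on chromosome 13 at 87672615 to 87696272 (plus strand). It fell most of the 10. Its level was 31.7, 30.1 and 30.2 CPM in the non-irradiated controls and 1.27, 3.00 and 2.70 in the knockdowns. After irradiation the controls had 6.37, 28.3 and 29.9 CPM and the knockdowns 0.538, 2.39 and 1.66. Library 1 was the lowest of its group in 3 of the groups, and the irradiated control 1 was still above all 6 knockdown libraries. The log2 fold change was -3.70 ± 0.59 (SE) without and -3.80 ± 0.60 with irradiation, which gave it ranks 3 and 4 from the most lowered of all tested genes. Counts for it reached down to 14 in a library, so its knockdown values are the least precise of the set.

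CNGB3 encodes the beta subunit of the cyclic nucleotide-gated channel of cone photoreceptors and lies on chromosome 8 (86553977 to 86743675, minus strand). Non-irradiated controls had 8.55, 11.2 and 10.2 CPM and knockdowns 1.10, 2.20 and 2.60. Irradiated controls had 11.45, 10.4 and 7.89 CPM and knockdowns 2.496, 2.18 and 1.98. The lowest control, at 7.89 CPM, lay well above the highest knockdown library, at 2.60, and the groups did not overlap. Its log2 fold changes were -2.32 ± 0.28 and -2.16 ± 0.27 (SE).

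NIPAL3, a member of a family of magnesium transporters, lies on chromosome 1 at 24415794 to 24472976 (plus strand). It had 101, 112 and 104 CPM in the non-irradiated controls and 58.0, 61.0 and 64.1 in the knockdowns. The irradiated controls had 99.5, 85.1 and 93.8 CPM and the knockdowns 62.8, 57.5 and 60.7. It showed the smallest difference of the 10 in each state but also one of the tightest, with log2 fold changes of -0.79 ± 0.10 and -0.62 ± 0.10 (SE). Coefficients of variation within its groups were 4.45 to 7.81%.

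ARL6IP1, a membrane protein that bends the tubules of the endoplasmic reticulum, lies on chromosome 16 at 18791667 to 18801678 (minus strand). Non-irradiated controls had 190, 159 and 164 CPM and knockdowns 80.1, 113 and 98.2. Irradiated controls had 225, 332 and 270 CPM and knockdowns 109, 115 and 101. The controls were higher after irradiation while the knockdown groups overlapped, so that the mean share kept was 56.8% without and 39.3% with irradiation. The log2 fold changes were -0.81 ± 0.16 and -1.35 ± 0.16 (SE). Of its exon bases 14.9% lie within another annotated gene and 13.4% of the 50-base stretches of its transcripts are found in another gene as well, so part of its counts is uncertain.

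Among the hydrolases, PTER, which splits N-acetyltaurine into taurine and acetate, lies on chromosome 10 at 16436943 to 16513745 (plus strand). It had 43.5, 42.15 and 45.9 CPM in non-irradiated controls and 14.1, 11.8 and 10.3 in knockdowns. With irradiation it had 26.3, 43.1 and 42.7 CPM in controls and 10.0, 14.1 and 13.1 in knockdowns. The irradiated control 1 was the lowest control, still above all knockdown libraries. The log2 fold changes were -1.87 ± 0.20 and -1.59 ± 0.20 (SE).

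GDPD1, a lysophospholipase D that releases lysophosphatidic acid, lies on chromosome 17 at 59220467 to 59275967 (plus strand). The non-irradiated controls had 34.2, 35.9 and 32.8 CPM and the knockdowns 12.4, 8.54 and 11.0. The irradiated controls had 20.65, 33.4 and 30.9 CPM and the knockdowns 10.95, 12.45 and 12.5. As for PTER, the irradiated control 1 was the lowest control and did not overlap the knockdowns. The log2 fold changes were -1.69 ± 0.19 and -1.24 ± 0.19 (SE).

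ABHD2, a lipase for monoacylglycerols of the alpha/beta hydrolase fold, lies on chromosome 15 at 89087459 to 89202360 (plus strand). It was the most abundant member: 1503, 1776 and 1813 CPM in non-irradiated controls and 768, 767 and 674 in knockdowns. Irradiated controls had 855, 1163 and 1301 CPM and irradiated knockdowns 408, 488 and 535. The 4 groups formed steps, with the irradiated groups below the non-irradiated ones at each Dox state. The knockdown log2 fold changes, -1.20 ± 0.17 and -1.21 ± 0.17 (SE), were nearly equal in both states. Of its exon bases 7.34% lie within other annotated genes, so a part of its counts is uncertain.

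FAM3C, a secreted cytokine-like protein linked to epithelial-mesenchymal transition, lies on chromosome 7 at 121348851 to 121396364 (minus strand). Non-irradiated controls had 51.5, 43.0 and 42.6 CPM and knockdowns 17.9, 14.2 and 17.2. Irradiated controls had 42.1, 42.5 and 37.1 CPM and knockdowns 21.4, 16.03 and 15.9. The highest knockdown library was well below the lowest control. The log2 fold changes were -1.48 ± 0.15 and -1.19 ± 0.15 (SE). Of its 50-base words, 18.3% also occur in other genes, most often in FAM3C2, so reads may have been shared with them.

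B3GLCT adds glucose to the O-fucose that POFUT2 places on thrombospondin repeats, and lies on chromosome 13 at 31199936 to 31332276 (plus strand). It had 7.61, 6.28 and 8.91 CPM in the non-irradiated controls and 4.08, 2.79 and 2.98 in the knockdowns. With irradiation the controls had 7.25, 7.12 and 7.24 CPM and the knockdowns 3.50, 2.88 and 3.37. Control and knockdown libraries did not overlap, though at 74 to 229 counts per library it was measured on few reads. The log2 fold changes were -1.22 ± 0.20 and -1.15 ± 0.20 (SE).

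TNFAIP1, which joins RhoA and other substrates to the CUL3 ubiquitin ligase, lies on chromosome 17 at 28335602 to 28347009 (plus strand). The non-irradiated controls had 37.5, 42.0 and 40.2 CPM and the knockdowns 16.3, 17.6 and 18.2. The irradiated controls had 39.6, 32.4 and 35.2 CPM and the knockdowns 15.5, 15.7 and 15.2. Its knockdown libraries were tightly grouped, with a coefficient of variation of 1.47% in the irradiated ones. The log2 fold changes were -1.20 ± 0.11 in the non-irradiated and -1.21 ± 0.11 (SE) in the irradiated cells.

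Per kilobase of exon, the level in non-irradiated controls ordered the members as follows (mean ± SD, n = 3). ABHD2 was highest at 164 ± 16.4 CPM per kb, and ARL6IP1 followed at 46.7 ± 4.42. As a mean over all 12 libraries, the ABHD2 level per kilobase was above that of 98.1% of tested genes. Another 5 genes lay close together: FAM3C at 13.4 ± 1.47, GDPD1 at 11.5 ± 0.519, NIPAL3 at 11.2 ± 0.599, PTER at 11.0 ± 0.476 and TNFAIP1 at 10.3 ± 0.577. GDPD1, NIPAL3 and PTER differed from their neighbour in this order by less than 1 SD. CNGB3 at 1.98 ± 0.267, B3GLCT at 1.66 ± 0.287 and SLITRK5 at 1.45 ± 0.0418 were the least abundant. B3GLCT and SLITRK5 differed by less than the SD of B3GLCT, and CNGB3 exceeded B3GLCT by slightly more than either SD.

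The 6 same-numbered pairs, taken apart, show how alike the members were. For all 10 genes the Dox+ library was lower in 6 of 6 pairs, which 14.4% of tested genes were too. TNFAIP1 varied least, from -1.35 to -1.04 on the log2 scale (a range of 0.303), followed by NIPAL3 from -0.87 to -0.57 (0.306) and ABHD2 from -1.43 to -0.97 (0.459). PRMT5's own range was 0.321. SLITRK5 varied most, from -4.56 to -3.29, and kept 4.00 to 9.96% of the control level. GDPD1 ranged from -2.06 to -0.91 and ARL6IP1 from -1.53 to -0.49, where its 3 irradiated pairs were all at -1.04 or lower and 2 of the 3 non-irradiated pairs at -0.74 or higher. CNGB3, PTER, B3GLCT and FAM3C had ranges between 0.620 and 0.932. The members' median in a pair was -1.35, -1.42 and -1.49 without irradiation and -1.05, -1.41 and -1.29 with it, with pair 1 the least lowered in each state.

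**Figure D3:**
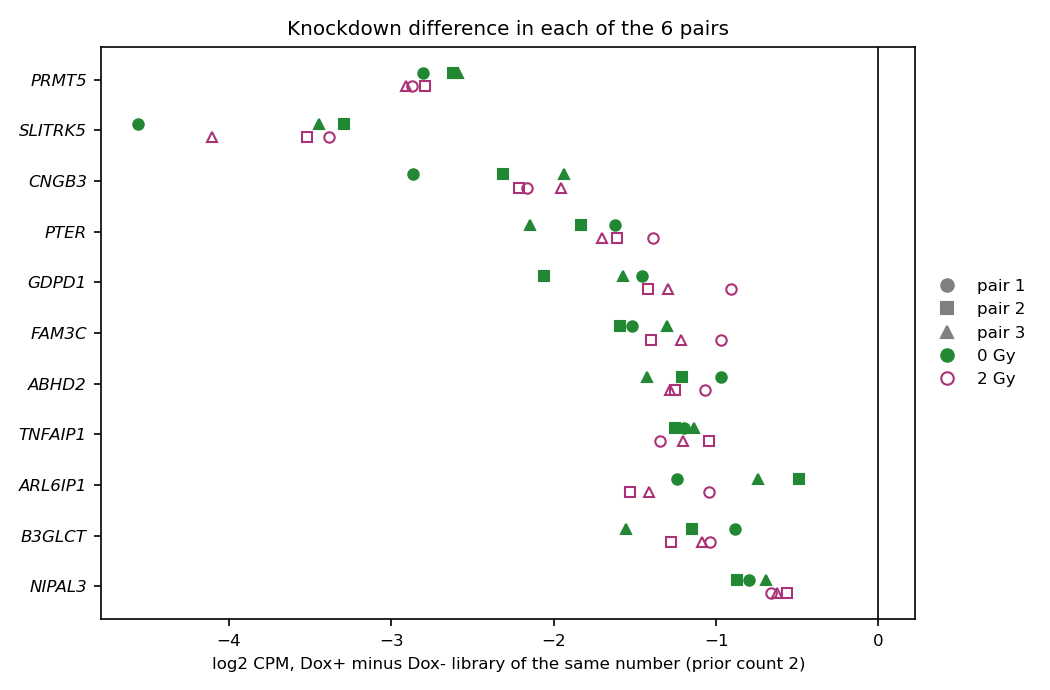
Dox+ minus Dox- difference in log2 CPM (prior count 2, horizontal axis) for PRMT5 and each member in each same-numbered pair; filled green markers are 0 Gy pairs, open purple markers are 2 Gy pairs and shapes are pair numbers. All points lie left of 0; the SLITRK5 points span -4.56 to -3.29 and those of NIPAL3 -0.87 to -0.57.

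Irradiation was a contrast that did not choose the members, although it uses the same libraries. In controls, 1 of 10 members passed the test (edgeR quasi-likelihood, Benjamini-Hochberg adjusted over 17191 genes), beside a background of 2.26%. This was ARL6IP1, which rose from 171 ± 16.2 to 276 ± 53.8 CPM (SD, n = 3), a log2 fold change of 0.69 ± 0.16 (SE, adjusted p = 0.0484), with all 3 irradiated controls above all 3 non-irradiated ones, as for 13.7% of tested genes. The call sits at the threshold: its adjusted p ran from 0.00271 with DESeq2 to 0.189 without non-irradiated control 3, over all alternatives. It was lost with limma-voom (0.0502), with scaling by library size only (0.0964), and without any 1 of 9 libraries, namely all 3 non-irradiated controls and libraries 2 and 3 of the other 3 groups. Without both irradiated number-1 libraries it was 0.81 (adjusted p = 0.00625). Its change in knockdowns was 0.16 ± 0.16 (adjusted p = 0.613).

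ABHD2 was the next member by irradiation, and did not pass the test. Its value by edgeR in controls was -0.62 ± 0.17 (SE, adjusted p = 0.0709) on the log2 scale, and in knockdowns it was -0.63 ± 0.17 (adjusted p = 0.0622). Its irradiated libraries were below the non-irradiated ones in 3 of 3 against 3 of 3 at both Dox states. Wholly lower groups were seen for 13.9% of tested genes in controls and 14% in knockdowns. Without both irradiated number-1 libraries the values were -0.47 (adjusted p = 0.0408) and -0.53 (adjusted p = 0.0168), and DESeq2 called both (0.00916 and 0.00714).

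No other member passed the irradiation test in either Dox state. In controls 9 of the 10 log2 fold changes were negative (CNGB3 turned to 0.023 without the filter on low counts), beside 50.49% of all tested genes. The members' median there was -0.18, against -0.004 over all tested genes. The control and knockdown libraries compared here also entered the choice of members. Signs and medians are therefore not independent of that choice and are a description. In knockdowns the signs were 5 and 5, with a median of 0.018, and edgeR called 0 of 10, beside a background of 3.58%. At an unadjusted p under 0.05 there was 1 member, beside 3600 of the 17191 tested genes. DESeq2 called 1 member in knockdowns. SLITRK5's value in controls, -0.51 ± 0.51 (SE, adjusted p = 0.572), became -0.08 without the irradiated control 1. PTER and GDPD1 likewise moved from -0.23 and -0.28 to -0.04 and -0.10 without that library.

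**Figure D4:**
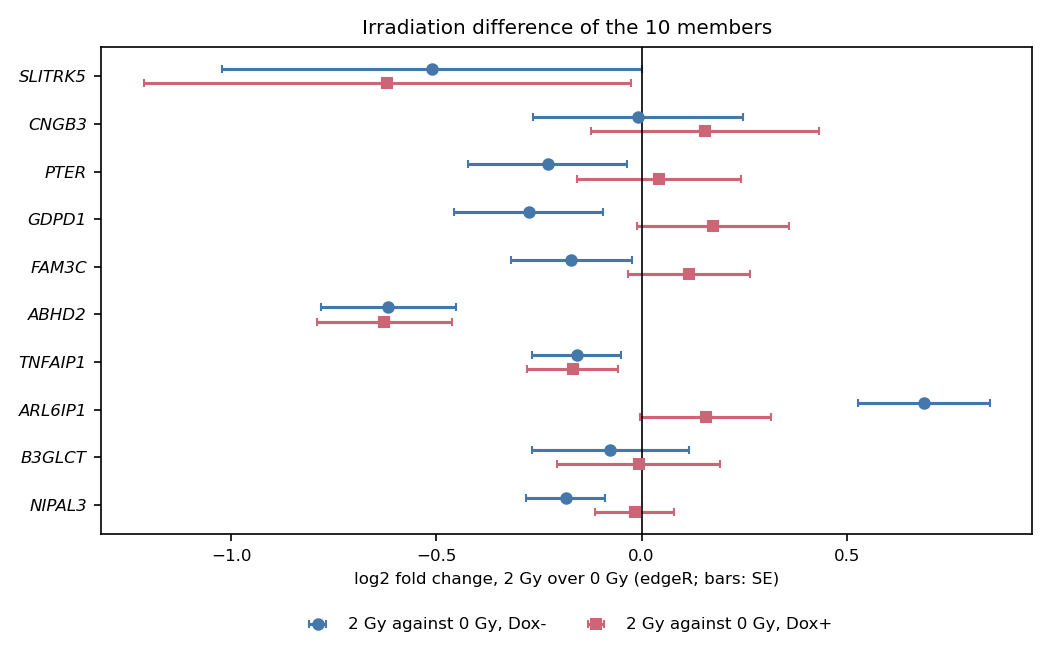
Log2 fold change of each member between 2 Gy and 0 Gy (horizontal axis; bars are the SE from edgeR), blue circles in Dox- and red squares in Dox+ libraries. ARL6IP1 stands at 0.69 in controls and 0.16 in knockdowns, ABHD2 near -0.6 in both, and most other members' bars cross or come near 0.

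The knockdown difference was compared between irradiation states for each member, with the interaction term of the same edgeR model. None of the 10 passed, with an adjusted p of 1 for each, and none of the 17191 genes did (0%, 350 at an unadjusted p under 0.05), while DESeq2 called 1 gene, not a member. The largest values were ARL6IP1 at -0.53 ± 0.23 (SE, unadjusted p = 0.0367), meaning a larger fall after irradiation, and GDPD1 at 0.45 ± 0.26. The other 8 lay between -0.11 and 0.29. With the replicate block within states, edgeR gave adjusted p of 0.34 for GDPD1 and 0.41 for ARL6IP1, the lowest of the 10. The choice of members asked for lower values in both states, so it used both terms of this comparison. That favours genes with a fall in each state, and the members' values here are not independent of the choice. A miss of the threshold does not show that the knockdown difference was equal in both states.

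Relatives of the members by family were looked up as a list of 31 genes, of which 19 could be tested. None passed in either knockdown comparison (edgeR, lowest adjusted p = 0.0685), beside backgrounds of 1.54% and 0.297% called either way, and their medians were -0.10 and -0.02. With the replicate block, 8 of 19 passed without irradiation (4 lower and 4 higher) and 3 with it, all lower, beside blocked backgrounds of 27.8% and 11.5% called either way. ABHD3, which like ABHD2 has the alpha/beta hydrolase fold, had 53.6 CPM in non-irradiated controls and 37.5 in knockdowns, a log2 fold change of -0.52 ± 0.13 (SE, adjusted p = 0.0685, or 0.00186 with the block). NIPA2, a magnesium transporter related to NIPAL3, had -0.50 ± 0.16 (adjusted p = 0.131, or 0.000268 with the block). ABHD3, NIPA2 and NIPAL2 were the 3 that the block called lower in both states. KCTD13 and KCTD10, the adaptors most like TNFAIP1, had 0.41 ± 0.14 and 0.19 ± 0.11 (adjusted p = 0.164 and 0.435, or 0.0134 and 0.0447 with the block). SLITRK6 and SLITRK3, relatives of SLITRK5, had -1.48 ± 0.68 and 0.87 ± 0.54, with libraries that varied widely (adjusted p = 0.284 and 0.436, or 0.0222 and 0.0106 with the block). These 7 relatives were chosen for mention after their values were seen.

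Of 15 partners in the same processes (CUL3 and RHOA for TNFAIP1, POFUT2 for B3GLCT, atlastins and reticulons for ARL6IP1 and others), 14 could be tested and 0 passed in either knockdown comparison by edgeR, with medians of -0.29 and -0.06. With the block, 8 passed without irradiation (6 lower and 2 higher) and 3 with it (2 lower and 1 higher). Blocked backgrounds were 27.8% and 11.5% of tested genes called either way. In irradiated controls POFUT2 fell from 29.8 ± 1.22 to 21.0 ± 2.24 CPM (SD, n = 3), a log2 fold change of -0.51 ± 0.12 (SE, adjusted p = 0.0457). In irradiated knockdowns RHOB, a small GTPase related to RhoA, rose from 64.2 ± 3.96 to 98.15 ± 12.3 CPM (0.61 ± 0.14, adjusted p = 0.0392). Both calls were lost without many single libraries, with adjusted p up to 0.186 and 0.156. Without both irradiated number-1 libraries, edgeR gave -0.44 for POFUT2 (adjusted p = 0.0388) and 0.55 for RHOB (adjusted p = 0.00901).

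None of 13 genes that process hairpins or carry out silencing, all tested, passed in either knockdown comparison by the edgeR fit without the block. With the block, 5 passed without irradiation (DICER1, DGCR8, TARBP2, AGO2 and TNRC6B) and 2 with it (DICER1 and TNRC6B), all higher. Blocked backgrounds were 13.7% and 5.43% of tested genes called higher. DICER1, the nuclease that cuts hairpins, had the lowest p: 119 CPM in non-irradiated controls and 179 in knockdowns (0.59 ± 0.15, SE, adjusted p = 0.0773 by edgeR, or 0.000105 with the block), and 115 and 169 with irradiation (0.56 ± 0.15, adjusted p = 0.235, or 0.000341 with the block). AGO2, the Argonaute that cuts its targets, had 0.30 ± 0.12 and 0.05 ± 0.12. These 5 genes were chosen for mention after their values were seen. Of the 5 methylosome genes only PRMT5 passed in the knockdown comparisons by that fit, without the block, and the other 4 had medians of -0.21 and -0.26. The block also called WDR77 lower in both (-0.31 and -0.47), CLNS1A lower without irradiation (-0.23) and COPRS lower with it (-0.34). It called 14.1% and 6.05% of all tested genes lower. CLNS1A, a methylosome subunit, was higher after irradiation in knockdowns, from 121.5 ± 3.63 to 171 ± 18.6 CPM (0.49 ± 0.11, adjusted p = 0.0347), with an adjusted p up to 0.12 when single libraries were left out. Without both irradiated number-1 libraries, edgeR gave 0.41 for it (adjusted p = 0.0183).

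The members' neighbours on the chromosome were compared too, as the nearest tested gene on each side that does not overlap. Of these 20 genes, 1 passed without irradiation and 0 with it by edgeR, beside backgrounds of 1.54% and 0.297% called either way. The gene that passed was FAM188A, 576 kb from PTER, with -0.59 (adjusted p = 0.0469). With the block 9 passed without irradiation (8 lower and 1 higher) and 4 with it (2 each way). Blocked backgrounds were 27.8% and 11.5% called either way, and 14.1% and 6.05% called lower. FAM188A and RMDN1, the gene next to CNGB3, were called lower in both. The neighbours' medians were -0.19 and -0.05, with 11 of 20 negative in each comparison. TNFAIP1 has neighbours on both sides at 0.113 and 0.168 kb, IFT20 and POLDIP2, and these had -0.29 and 0.19 without irradiation and -0.16 and 0.11 with it. RPS15A, 1.28 kb from ARL6IP1, had -0.22 and -0.06. Of these 3, the block called IFT20 and RPS15A lower without irradiation (edgeR, adjusted p = 0.0193 and 0.0317).

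The genes whose differences over the 6 pairs lay closest to the members' median in each pair were sought among 11177 other tested genes with a mean of at least 5 CPM. The measure was the mean absolute difference in log2 units, whose median over candidates was 1.36. The 5 closest were HERC3, a ubiquitin ligase (0.061), CCDC121 (0.066), TMEM44 (0.106), SEC24D, a coat protein of vesicles that leave the endoplasmic reticulum (0.143), and PSMB5, a catalytic subunit of the proteasome (0.155). Measured in the same way, FAM3C (0.115), ABHD2 (0.139), GDPD1 (0.164), B3GLCT (0.192) and TNFAIP1 (0.237) were nearest to the median among the members, and SLITRK5 was farthest (2.38). HERC3 had log2 fold changes of -1.42 and -1.14, and PSMB5 -1.27 and -1.39. HERC3 and SEC24D were not called by the edgeR fit without the block (adjusted p = 0.0695 and 0.0581 without and 0.305 and 0.238 with irradiation). DESeq2, also without a block, called both without irradiation (adjusted p = 0.00425 and 0.00258). With irradiation it called SEC24D (0.0375) and not HERC3 (0.0737). With the replicate block both were called lower in both states (1.58e-06 and 1.98e-05 without, 9.9e-06 and 9.89e-05 with irradiation). The 5 genes were chosen by these differences, and their values are a description.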

How the data were processed

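The authors deposited whole-number read counts for each gene, not normalized, as a table of 6 non-irradiated and a table of 6 irradiated libraries; per the file headers these follow the featureCounts layout, with exon coordinates and exon length. Per the submitters' processing notes, the build was GRCh38 and the tools included STAR (2.5), Subread (1.5.3) with featureCounts, and edgeR (3.20.8). No source used here gives the strand setting, the handling of multi-mapping reads or the annotation release, so counts of overlapping or near-identical genes are uncertain. Libraries were matched to groups by the sample numbers in the labels, and no replicates were alike within sampling noise (lowest chi-square per gene 9.795).

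From the counts, edgeR 4.0.16 (R 4.3.3) was run on all 12 libraries: filterByExpr (minimum count 10, total 15), TMM, a mean per group, robust quasi-likelihood test, 8 residual degrees of freedom, Benjamini-Hochberg adjustment over 17191 genes, a call at 0.05. The SE is the log2 fold change divided by the square root of F. Log2 CPM of pairs used a prior count of 2. Alternatives were DESeq2 1.42.0, limma-voom (limma 3.58.1), other scaling, no filter, a replicate block, only the 6 libraries of a state, and leaving out each library, and, added after the data were seen, leaving out both irradiated number-1 libraries. On simulated data of 17191 genes for the knockdown without irradiation, 42% of genes lowered to a fold of 0.5 and 74% of those lowered to 0.25 were recovered, with 6.30% of calls false.

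Deviations of same-numbered control and knockdown libraries from their group means correlated at 0.233 to 0.296 without and 0.607 to 0.775 with irradiation, so numbers pair samples within a state. Members and lists were chosen with earlier results of these data known. By plan, named genes were the members, PRMT5, list genes called in any comparison (at most 4 per list) and the 5 genes most like the members' median. Other family relatives, hairpin genes, methylosome genes, markers and neighbours named in the text fall outside this plan. The relatives and hairpin genes among them were chosen after their values were seen. Words were counted in the longest annotated 3′ UTR per gene of GENCODE 29, to which 17104 of the tested genes matched.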

Additional observations from a re-analysis of the deposited data

How the results depend on the processing

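The members' median knockdown difference kept its sign in every alternative run. It moved by more than the SD between pairs (0.071) only without non-irradiated knockdown 1 (-1.47) and without non-irradiated control 2 (-1.43), and leaving out single libraries gave -1.47 to -1.31 without and -1.40 to -1.20 with irradiation. How many of the members were called depended more on the processing: 6 to 10 without irradiation and 1 to 10 with it when single libraries were left out, and 0 with irradiation when only the 6 irradiated libraries were fitted. With the replicate block within states all 10 were called in both.

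Counts of genes called lower, 207 without and 50 with irradiation, became 650 and 194 with DESeq2, 2427 and 1040 with the replicate block, 839 and 1 with only the 6 libraries of a state, and 1422 and 262 without both irradiated number-1 libraries. Single libraries left out gave 30 to 653 and 4 to 214. For irradiation in controls, 389 genes became 1377 with DESeq2, 614 with library size only, 592 without the filter, 965 with the replicate block across states and 868 without both number-1 libraries, and 24 to 648 without single libraries. For irradiation in knockdowns, 615 became 1438 with DESeq2, 1157 with the block and 1806 without both libraries, and 76 to 1489 without single libraries. The difference of knockdown effects gave 0 genes, 1 with DESeq2 and 0 to 0 without single libraries. Members called for irradiation in controls, 1, became 2 with DESeq2, the block and without both libraries, 0 with limma-voom, and 0 to 1 without single libraries. In knockdowns, 0 became 1 with DESeq2, library size only, no filter, the block and without both libraries, and 0 to 1 without single libraries. Across states same-numbered samples share only a number (correlations -0.150 to 0.143), so the block there pairs nothing.

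Scaling by library size only shifted the median of all genes by -0.15 in both irradiation comparisons. Signs near 0 turned. In controls these were CNGB3 (0.023 without the filter, -0.131 to 0.134 without single libraries) and B3GLCT (-0.202 to 0.046). In knockdowns they were B3GLCT (0.0053 with DESeq2, 0.024 with limma-voom, -0.127 to 0.157), PTER (-0.100 with library size only, -0.060 to 0.175), FAM3C (-0.037 with library size only, -0.039 without both libraries, -0.042 to 0.194), CNGB3 (-0.125 to 0.402) and NIPAL3 (-0.067 to 0.020). For the difference of knockdown effects they were ABHD2 (0.00024 with limma-voom, 0.00091 with the replicate block, -0.158 to 0.124), TNFAIP1 (0.00061 with library size only, 0.074 without both libraries, -0.085 to 0.078), SLITRK5 (-0.612 to 0.297), CNGB3 (-0.100 to 0.413) and B3GLCT (-0.068 to 0.246). The cause of these moves was not tested.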
